A study of Homo sapiens with 16 samples.

Results

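The genes described here are 10 members of the poly(A)-binding protein system: the poly(A)-binding proteins PABPC1, PABPC4 and PABPN1, their partners EIF4G1, PAIP1 and PAIP2, and the deadenylase subunits CNOT1, CNOT6, CNOT7 and PAN3. They are defined by their gene symbols, and each was found on 1 line of every count table, among 20314 genes in the U251 tables and 20626 in the U343 tables. All 10 passed the filter on low counts in every comparison. Their positions below are gene spans in the hg18 build used by the count tables.

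RNA was measured in 2 human glioblastoma cell lines, U251 and U343, to find transcripts that respond to the microRNA miR-137. Cells were transfected at 25 nM, either with synthetic miR-137 or with a control oligonucleotide, using Lipofectamine RNAiMax, and were collected after 48 h. RNASeq libraries were made from total RNA, and RIPSeq libraries from RNA recovered with antibodies against PABP, both after removal of ribosomal RNA. The antibodies were a mix named anti-PABP I and anti-iPABP. With 2 libraries for each combination of cell line, assay and mimic, there were 16 libraries in 8 groups. The labels do not say that the replicates came from separate cultures, so the p-values below measure the spread between these libraries, which may be technical. U251 libraries were made from random-hexamer cDNA and U343 libraries with the TotalScript kit, so cell line and library kit cannot be told apart. The microRNA was added from outside as a transfected mimic and each cell line is 1 established line, which limits these groups as models of a tumor.

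Cytoplasmic poly(A)-binding proteins coat the poly(A) tail of an mRNA and touch the scaffold protein EIF4G1 at the cap, so that the ends of the message are held together while ribosomes load. MicroRNAs act in the opposite direction: the protein they guide recruits the PAN2-PAN3 and CCR4-NOT deadenylases, which shorten the tail, and PABP is itself contacted in this process. The messages of many translation factors, PABPC1 among them, begin with a terminal oligopyrimidine (TOP) tract that couples their translation to growth signals. PABP is therefore the handle of the RIPSeq assay and, with the deadenylases, part of the machinery through which a microRNA works. The mRNAs that encode these proteins are also among those that the assay itself counts.

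The mimic carries the sequence of miR-137, given here because its seed defines which messages it can pair with. In RefSeq (GRCh38.p14) the mature strand lies on the minus strand at chr1:98046091-98046113 and is 23 bases long. The seed, bases 2 to 8 from the 5′ end, is in capitals, and the complementary site in an mRNA is AGCAAUA.
hsa-miR-137-3p: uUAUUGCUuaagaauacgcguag
No transcript sequence was used here, so the members were not searched for this site.

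Depth was 10156675 to 30731476 counted reads per library in U251 and 37736206 to 45134766 in U343. In U251 total RNA depth differed with the mimic. The control libraries held 16886287 to 18224061 reads and the miR-137 libraries 10156675 to 10260834. Whether this gap affected the calls there was not tested. Levels below are in CPM, a gene's count relative to the library's total, scaled by TMM, edgeR's correction for library composition, over the 8 libraries of a cell line. They are not divided by transcript length, so they are compared between libraries and not between genes. Of the glioma and astroglial markers, VIM, CD44, SOX2, NES, EGFR and SOX9 were at 37.8 CPM or more in every library. GFAP, the astrocyte filament, was 3020 to 7740 CPM in U343 and only 3.16 to 31.2 CPM in U251, where the astroglial S100B was at most 1.69 CPM. Markers of immune, endothelial and neuronal cells were low (PTPRC at most 0.695 CPM in U251 and 0.14 in U343, PECAM1 at most 1.53, SYP at most 16.1), with higher values for CD68 (3.09 to 115 CPM), for the endothelial CDH5 (7.55 to 32.5 CPM) and VWF (6.12 to 27 CPM) in U343, both at most 1.48 CPM in U251, and for SYT1 (up to 33.1 CPM in U251). The 2 U251 RIPSeq control libraries stood apart from each other: replicate 2 had 2.88 times the CNOT7 level of replicate 1, 2.57 times the CNOT6 level and 1.89 times the PAIP1 level, while for the 2 U251 RIPSeq miR-137 libraries the same ratio was 1.03 for CNOT7, 0.987 for CNOT6 and 0.964 for PAIP1. Each member's response to miR-137 in U251 PABP-bound RNA is therefore also given without each of these control libraries, in a fit in which the remaining control library is taken to vary like the miR-137 libraries.

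**Figure D1:**
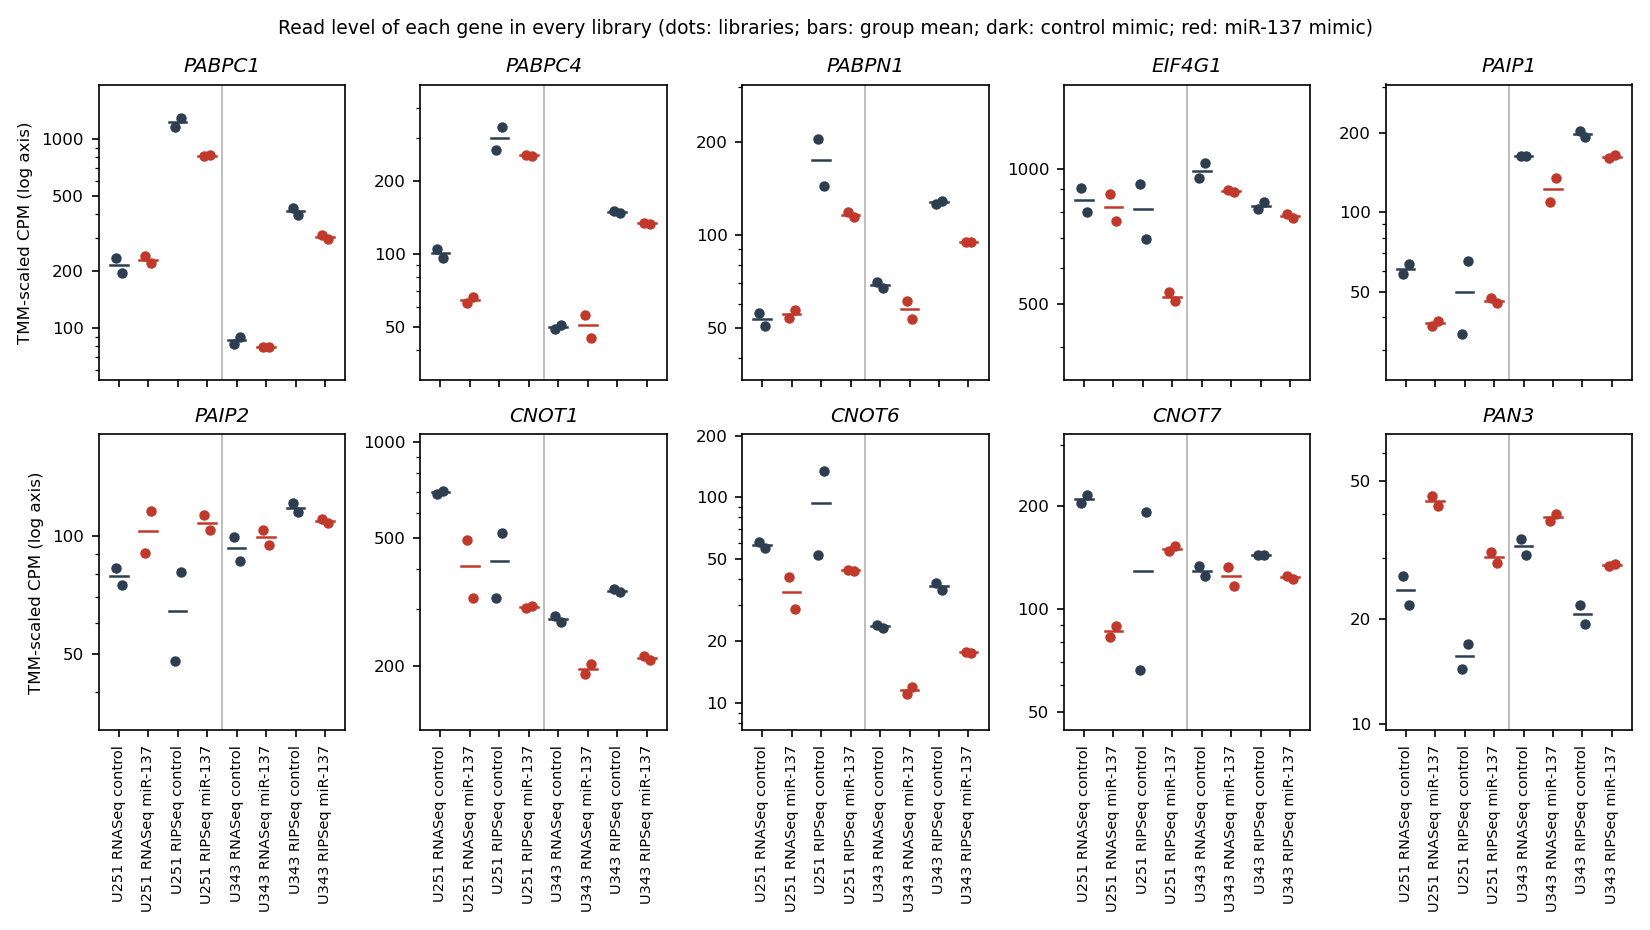
TMM-scaled CPM of the 10 genes on a log axis in every library, with control libraries dark, miR-137 libraries red, the group mean as a bar and replicate 1 as the left dot of each pair. CNOT6 and CNOT1 lie lower and PAN3 higher with miR-137 in each experiment, although for CNOT1 and CNOT6 the U251 RIPSeq control libraries are far apart, and in either line every PABPC1 dot lies higher in RIPSeq than in RNASeq.

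The first comparison asked how the mRNAs of this machinery responded to miR-137. In U251 total RNA, 5 of the 10 fell (PABPC4, PAIP1, CNOT1, CNOT6 and CNOT7) and 2 rose (PAIP2 and PAN3), by edgeR's quasi-likelihood test at an adjusted p under 0.05, where 57.7% of all genes tested passed (28.7% higher and 29% lower). In U343 total RNA, CNOT1 and CNOT6 fell and none rose, against 20% of all genes (8.31% higher and 11.7% lower). In U343 PABP-bound RNA, PABPC1, PABPN1, PAIP1, CNOT1 and CNOT6 fell and PAN3 rose, against 56.3% (28.5% higher and 27.8% lower). In these 3 experiments 7, 2 and 6 of the 10 members passed, shares near the background, so these counts say nothing particular to them. The lower members, 5 of 10 in U251 total RNA and 5 of 10 in U343 PABP-bound RNA, are above the share of lower genes over all genes. With only 10 members this was not tested. In U251 PABP-bound RNA 0 of 10 passed, against 1.21% of all genes (0.944% higher and 0.263% lower), with 3 members (PABPC1, EIF4G1 and PAN3) at an unadjusted p under 0.05 and 0 by DESeq2. Without U251 RIPSeq control replicate 1, 10 of 10 passed there (2 higher, 8 lower) beside 68.1% of all genes, and without control replicate 2, 7 passed (4 higher, 3 lower) beside 74.4%, while 0 passed without miR-137 replicate 1 or without miR-137 replicate 2. In U343 total RNA the calls of CNOT1 and CNOT6 were lost without control replicate 1 or without control replicate 2, as were those of all other genes. Without miR-137 replicate 1, PABPN1 and PAIP1 gained a call, where calls over all genes rose as well. The members' median log2 fold change was -0.37 in U251 total RNA, -0.33 in U251 PABP-bound RNA, -0.11 in U343 total RNA and -0.24 in U343 PABP-bound RNA, beside medians over all genes of 0.02, -0.02, 0.02 and 0.0049. In bulk RNA such as this, fewer cells of a type and less RNA per cell cannot be told apart.

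**Figure D2:**
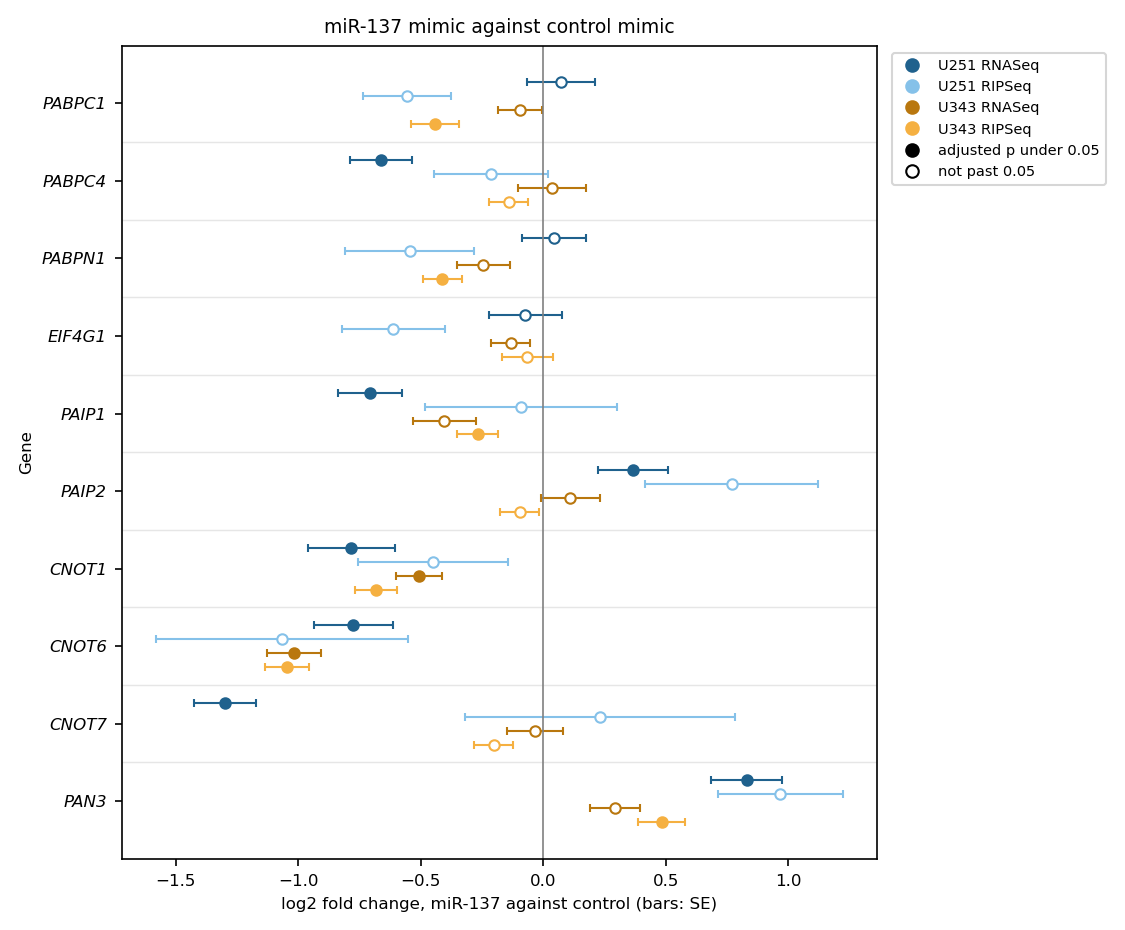
Log2 fold change of miR-137 against control with its standard error in each of the 4 experiments, filled where the adjusted p is under 0.05. CNOT1 and CNOT6 lie below 0 and PAN3 above 0 in all 4, and the CNOT7 points are spread from -1.30 in U251 RNASeq to 0.23 in U251 RIPSeq.

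PABPC1, at chr8:101784320-101803491 on the minus strand, encodes the main cytoplasmic poly(A)-binding protein. Its total RNA level in U251 was 236 and 197 CPM in the control libraries and 241 and 219.8 CPM with miR-137, and in U343 82.6 and 89.4 CPM against 79.5 and 79.7 CPM. The U251 groups overlapped and the U343 miR-137 libraries lay just under the controls, and neither comparison passed the test (adjusted p = 0.67 and 0.50). In PABP-bound RNA the U251 levels were 1152 and 1293 CPM in controls against 811 and 822 CPM with miR-137, and the U343 levels 433 and 396 CPM against 309 and 295 CPM. Both miR-137 pairs lay below both control pairs, by -0.56 ± 0.18 (SE) on the log2 scale in U251 (adjusted p = 0.20) and by -0.44 ± 0.10 in U343 (adjusted p = 0.0057). The U251 value was -0.66 without control replicate 1 and -0.35 without control replicate 2. PABPC1 thus passed in U343 PABP-bound RNA and in 0 of the other 3 experiments. Without U343 RIPSeq control replicate 1 the call was lost (log2 -0.39, adjusted p = 0.063). Whether its PABP-bound RNA responded differently from its total RNA was tested as an interaction, which gave -0.67 ± 0.25 in U251 (adjusted p = 0.22) and -0.35 ± 0.13 in U343 (adjusted p = 0.24). PABPC1 has 13 annotated pseudogenes in RefSeq, and how reads that match several places were counted is not given in the sources used here, so part of its count is uncertain.

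PABPC4, at chr1:39799072-39815108 on the minus strand, encodes a close relative that was described as an inducible PABP of activated T cells. In U251 total RNA it was 105 and 95.9 CPM in controls and 62.5 and 66.0 CPM with miR-137, a log2 change of -0.66 ± 0.13 (log2, adjusted p = 0.00058) with no overlap. The U343 total RNA controls, 48.9 and 50.9 CPM, lay between the miR-137 libraries at 56.0 and 45.1 CPM (log2 0.04 ± 0.14, adjusted p = 0.88). The difference between the cell lines passed its own test (0.69 ± 0.19, U343 minus U251, adjusted p = 0.029). That call was lost on leaving out any of the 4 U251 RNASeq libraries or either U343 RNASeq control library, with adjusted p-values of 0.059 to 0.093 and log2 values of 0.64 to 0.81. In PABP-bound RNA it was 268 and 332 CPM against 256 and 253 CPM in U251, and 150.2 and 147 CPM against 134 and 133 CPM in U343. Both miR-137 pairs lay below the controls, yet neither difference passed (adjusted p = 0.66 and 0.17). Its U251 value of -0.21 ± 0.23 was -0.39 without control replicate 1 and 0.07 without control replicate 2. The small nucleolar RNA gene SNORA55 lies within its span.

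PABPN1, at chr14:22859237-22865209 on the plus strand, encodes the nuclear poly(A)-binding protein that controls tail length during polyadenylation. Its U251 total RNA was 55.9 and 50.9 CPM in controls and 54.1 and 57.3 CPM with miR-137, which overlapped. The U343 total RNA values were 70.5 and 67.2 CPM against 61.3 and 53.6 CPM, lower with miR-137 without passing the test (log2 -0.24 ± 0.11, adjusted p = 0.19). PABP-bound levels were 204 and 144 CPM against 119 and 114 CPM in U251 and 126 and 129 CPM against 94.9 and 94.7 CPM in U343. It fell in U343 PABP-bound RNA, with a change of -0.41 ± 0.08 on the log2 scale (adjusted p = 0.0030), and the U251 value of -0.55 ± 0.26 did not pass (adjusted p = 0.34). The latter was -0.31 without control replicate 1 and -0.66 without control replicate 2. PABPN1 has 2 annotated pseudogenes.

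EIF4G1, at chr3:185515050-185535840 on the plus strand, encodes the scaffold that joins the cap-binding complex to PABP. Its total RNA was 905 and 800.2 CPM in U251 controls and 876 and 765 CPM with miR-137, and 953 and 1027 CPM in U343 controls and 896 and 888 CPM with miR-137. The U251 groups overlapped and the U343 groups did not, with a log2 difference of -0.13 ± 0.08 (adjusted p = 0.30). In PABP-bound RNA the U251 levels were 925 and 697 CPM against 530.4 and 506 CPM, and the U343 levels 811 and 842 CPM against 791 and 774 CPM. The U251 difference of -0.61 ± 0.21 did not pass (adjusted p = 0.22) and was -0.43 and -0.69 without control replicates 1 and 2, so EIF4G1 passed in 0 of the 4 experiments although its sign was negative in each. SNORD66 lies within its span.

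PAIP1 and PAIP2 act in opposite ways on PABP, the first as a stimulator of translation and the second as an inhibitor that displaces PABP from the tail. PAIP1 (chr5:43562127-43593278, minus strand) was 58.5 and 63.7 CPM in U251 control total RNA and 37.0 and 38.8 CPM with miR-137, and 163 and 164 CPM against 109.7 and 135 CPM in U343. It fell in U251 (log2 -0.71 ± 0.13, adjusted p = 0.00044), and the U343 difference of -0.41 ± 0.13 missed the threshold (adjusted p = 0.097, and 0.045 by DESeq2). Its U343 PABP-bound levels were 204 and 193 CPM against 161 and 165 CPM, a log2 change of -0.27 ± 0.08 (adjusted p = 0.028). Without any single one of those 4 libraries that adjusted p became 0.053 to 0.15, so the call needed all of them. In U251 PABP-bound RNA the controls, 34.7 and 65.5 CPM, lay on either side of the miR-137 libraries at 47.2 and 45.4 CPM. The difference of -0.09 ± 0.39 was -0.50 without control replicate 1 and 0.56 without control replicate 2. PAIP1 has 2 annotated pseudogenes.

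PAIP2 (chr5:138705418-138733308, plus strand) was 82.9 and 75.0 CPM in U251 control total RNA and 90.4 and 116 CPM with miR-137. It rose there by 0.37 ± 0.14 (log2, adjusted p = 0.041), a call near the threshold that DESeq2 did not make (adjusted p = 0.061). Without miR-137 replicate 2 the difference was 0.17 (adjusted p = 0.34), without control replicate 2 it was 0.29 (adjusted p = 0.23), and without control replicate 1 it was 0.43 (adjusted p = 0.057). Its U343 total RNA levels, 99.3 and 86.5 CPM in controls and 104 and 94.6 CPM with miR-137, overlapped. Its PABP-bound levels were 47.9 and 81.0 CPM against 113 and 103 CPM in U251 and 121 and 115 CPM against 111 and 108 CPM in U343. The U251 libraries did not overlap, but the spread of the controls left the log2 difference of 0.77 ± 0.35 short of the threshold (adjusted p = 0.32). It was 0.42 without control replicate 1 and 1.32 without control replicate 2. SLC23A1, a gene of the opposite strand, shares 2519 bases of its span, and the counting is not stated to use strand.

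With each experiment fitted alone, CNOT1 and CNOT6 passed in the same direction in 3 of the 4 experiments, more than any other member. Their U251 total RNA calls were lost in the joint fit of the 8 U251 libraries given below, so this ranking depends on the fit. CNOT1 (chr16:57111356-57221251, minus strand) is the scaffold on which the CCR4-NOT complex is built. Its total RNA was 689.6 and 703 CPM in U251 controls and 493 and 326 CPM with miR-137, and 287 and 274 CPM in U343 controls and 189 and 202 CPM with miR-137. Every miR-137 library lay below both controls of its line, with log2 changes of -0.78 ± 0.18 (adjusted p = 0.0020) and -0.51 ± 0.09 (adjusted p = 0.031). The U343 call was lost without control replicate 1 or control replicate 2, where all other genes lost theirs as well. Without any 1 library the U343 log2 change was -0.55 to -0.47. Its PABP-bound levels were 348 and 339 CPM against 214 and 209 CPM in U343, a log2 change of -0.68 ± 0.09 (adjusted p = 0.00042), and 326 and 521 CPM against 303 and 307 CPM in U251, where the difference of -0.45 ± 0.31 did not pass (adjusted p = 0.48). Without U251 RIPSeq control replicate 1 the latter was -0.77, and without control replicate 2 it was 0.05. CNOT1 shares 576 bases of its span with SETD6 on the opposite strand, whose reads cannot be told apart without strand, and contains SNORA46 and SNORA50.

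CNOT6 (chr5:179854023-179937959, plus strand) encodes one of the paired catalytic subunits of the complex that removes adenosines. Its U251 total RNA was 60.6 and 57.1 CPM in controls and 40.8 and 28.8 CPM with miR-137 (log2 -0.78 ± 0.16, adjusted p = 0.0010). In U343 it was 23.9 and 23.3 CPM against 11.1 and 12.0 CPM in total RNA, and 38.3 and 35.6 CPM against 17.8 and 17.6 CPM in PABP-bound RNA. The log2 changes were -1.02 ± 0.11 (2.02-fold, adjusted p = 0.011) and -1.05 ± 0.09 (2.07-fold, adjusted p = 5.9e-05), the largest decreases of any member in U343. The call in total RNA was lost without control replicate 1 or replicate 2, where all other genes lost theirs as well. Without any 1 library that log2 change was -1.07 to -0.98. The U251 PABP-bound levels were 52.6 and 135 CPM in controls against 44.5 and 44.0 CPM, with no overlap and a log2 difference of -1.07 ± 0.51 that did not pass (adjusted p = 0.34). It was -1.61 without control replicate 1 and -0.10 without control replicate 2.

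CNOT7, at chr8:17131111-17148758 on the minus strand, encodes the second kind of catalytic subunit, and its total RNA responded differently in the cell lines. Its U251 total RNA was 203 and 215 CPM in controls and 82.6 and 89.4 CPM with miR-137, a log2 change of -1.30 ± 0.13 (2.46-fold, adjusted p = 2.1e-06) and the largest decrease of any member in that experiment. Its U343 total RNA was 134 and 125 CPM against 133 and 117 CPM, which overlapped (log2 -0.03 ± 0.11, adjusted p = 0.86). The test of the difference gave 1.26 ± 0.17 (adjusted p = 0.0025). The PABP-bound levels in U343 were 144 and 143 CPM against 125 and 122 CPM, lower without passing (log2 -0.20 ± 0.08, adjusted p = 0.060). In U251 PABP-bound RNA the controls of 66.4 and 192 CPM enclosed the miR-137 libraries at 147 and 152 CPM. Its fitted difference there was 0.23 ± 0.55, and it turned to -0.35 without control replicate 1 and to 1.32 without control replicate 2. CNOT7 has 2 annotated pseudogenes.

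PAN3, at chr13:27646417-27767471 on the plus strand, encodes the subunit that tethers the PAN2 nuclease to PABP and to microRNA complexes. By sign PAN3 was opposite to CNOT1 and CNOT6 in each of the 4 experiments, and by calls opposite to CNOT7 only in U251 total RNA. Its U251 total RNA was 26.7 and 22.0 CPM in controls and 45.2 and 42.4 CPM with miR-137, a log2 rise of 0.83 ± 0.14 (1.78-fold, adjusted p = 0.00027). Its U343 PABP-bound levels were 22.0 and 19.4 CPM against 28.4 and 28.9 CPM, a rise of 0.48 ± 0.10 (adjusted p = 0.0038). For U343 total RNA, 34.1 and 30.7 CPM stood against 38.3 and 40.1 CPM (log2 0.29 ± 0.10, adjusted p = 0.12), and in U251 PABP-bound RNA, 14.4 and 17.0 CPM against 31.2 and 29.1 CPM (log2 0.97 ± 0.25, adjusted p = 0.15). Every miR-137 library was above both controls in each of the 4 experiments, including U251 PABP-bound RNA, where the value was 0.83 without control replicate 1 and 1.21 without control replicate 2.

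In U251, a joint fit of its 8 libraries, which takes the wide spread of the RIPSeq controls into every comparison, kept 1 of the 7 total RNA calls, that of PAN3, with the other adjusted p-values at 0.052 (PABPC4) to 0.35 (PAIP2). The same edgeR fit called 1 member in U251 PABP-bound RNA, PAN3, which was higher (adjusted p = 0.018). With upper-quartile scaling the median of all genes in U251 total RNA moved by 0.14 on the log2 scale, and the share of called genes that were higher was 60.5% in place of 49.8%. Relative to either median, the 5 members that fell and the 2 that rose there kept their direction.

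The second comparison asked which of these mRNAs were over- or under-represented in PABP-bound RNA relative to total RNA. Among the members, the mRNAs of the poly(A)-binding proteins themselves stood highest. PABPC1, PABPC4 and PABPN1 passed in each of the 4 comparisons, U251 and U343 with either mimic. These comparisons use the same libraries as those of the mimics. Counting all members, 3 were higher and 0 lower in U251 control cells (14% of all genes passed, 7.87% higher and 6.14% lower), 5 higher and 3 lower in U251 with miR-137 (65.9%, 32.4% higher and 33.5% lower), 7 higher and 2 lower in U343 control cells (48.6%, 24.4% higher and 24.2% lower), and 4 higher and 1 lower in U343 with miR-137 (18.1%, 9.29% higher and 8.78% lower). TMM scaling sets the typical gene to no difference between the assays, so these values are relative to it and do not give the amount of RNA recovered.

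**Figure D3:**
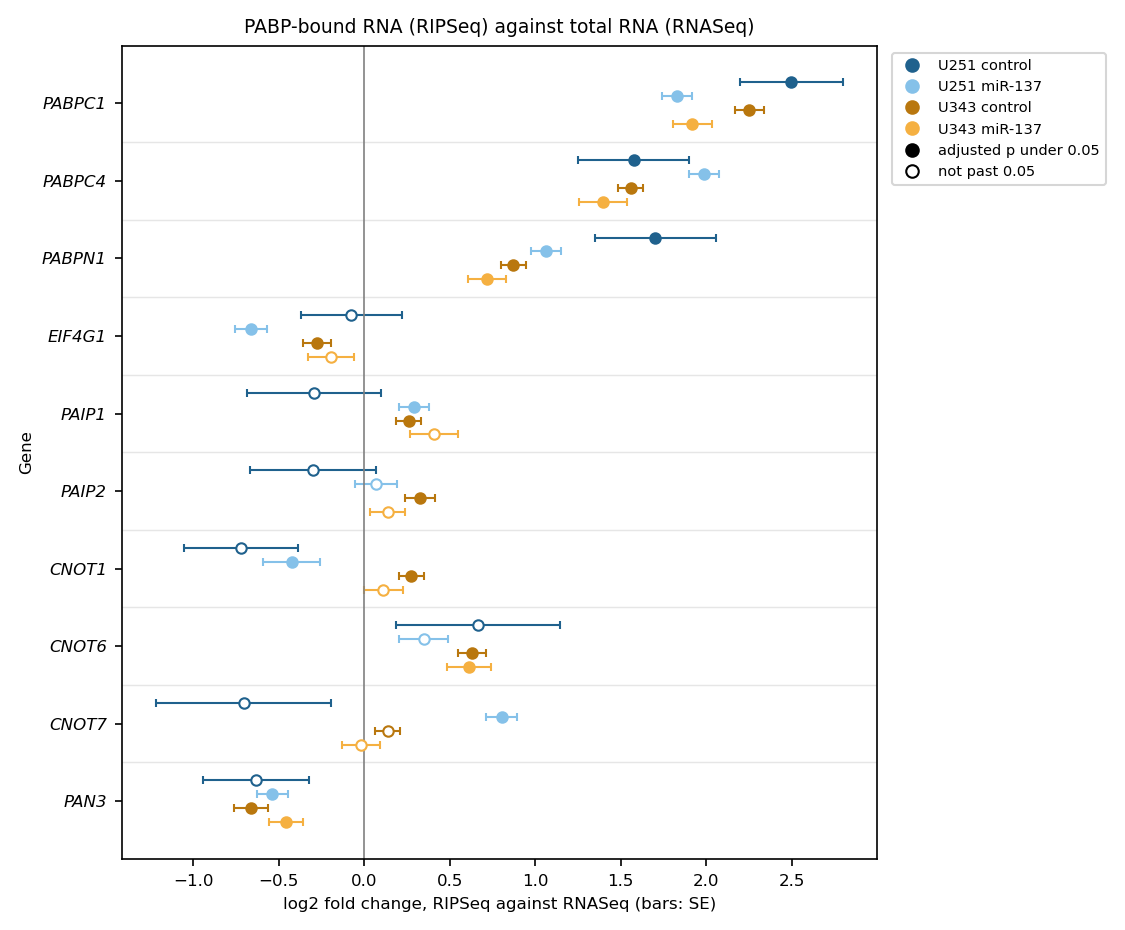
Log2 fold change of PABP-bound against total RNA with its standard error, for each cell line and mimic, filled where the adjusted p is under 0.05. The 3 poly(A)-binding protein genes lie to the right of 0 in all 4 comparisons, PABPC1 at 1.83 to 2.50, while PAN3 lies to the left in all 4.

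PABPC1 was 5.64-fold higher in PABP-bound RNA in U251 control cells (log2 2.50 ± 0.30, adjusted p = 0.014) and 3.55-fold higher with miR-137 (1.83 ± 0.09, adjusted p = 2.4e-06). In U343 it was 4.76-fold higher (2.25 ± 0.09, adjusted p = 7.6e-06) and 3.78-fold higher (1.92 ± 0.11, adjusted p = 0.0085). All RIPSeq libraries lay above all RNASeq libraries of the same line, the lowest RIPSeq value being 811 CPM in U251 and 295 CPM in U343. Among all genes tested, its log2 fold change was at the 97.8th percentile in U251 control cells, the 98th in U251 with miR-137, the 99.8th in U343 control cells and the 99.3rd in U343 with miR-137. PABPC3, a retrogene of PABPC1 with few reads, was also higher in U343, by 2.65 ± 0.22 in controls (adjusted p = 0.00010) and 2.23 ± 0.22 with miR-137 (adjusted p = 0.013). Its counts were 27 and 26 reads in control RNASeq libraries and 181 and 138 in control RIPSeq libraries, which may include reads that belong to PABPC1.

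PABPC4 was 2.98-fold higher in U251 control cells (log2 1.58 ± 0.32, adjusted p = 0.033), 3.97-fold with miR-137 (1.99 ± 0.09), 2.95-fold in U343 control cells (1.56 ± 0.07) and 2.63-fold with miR-137 (1.40 ± 0.14, adjusted p = 0.013). PABPN1 followed at 1.70 ± 0.35 in U251 control cells (adjusted p = 0.034), 1.06 ± 0.09 with miR-137, 0.87 ± 0.07 in U343 control cells and 0.72 ± 0.11 with miR-137 (adjusted p = 0.022). The order of the fold changes was PABPC1, PABPC4, PABPN1 in U343 with either mimic, and differed in U251, where PABPC4 stood first with miR-137 and PABPC4 and PABPN1 lay within their errors of each other in controls. The calls of these 3 genes in U251 control cells and in U343 cells with miR-137 changed when single libraries were left out. Calls over all genes changed in the same fits, so these changes are not particular to the 3 genes. In U251 control cells, 0 members passed when no filter on low counts was used, where 100 of all genes did in place of 1855. The calls were lost without RNASeq control replicate 2, and those of PABPC4 and PABPN1 without RNASeq control replicate 1. Without any 1 of the 4 libraries, the log2 fold changes were at least 2.25 for PABPC1, 1.34 for PABPC4 and 1.42 for PABPN1. Without RIPSeq control replicate 1, 6 members passed beside 54.9% of all genes, and without RIPSeq control replicate 2, 8 passed beside 75.9%. The log2 values were then 2.57 and 2.34 for PABPC1, 1.72 and 1.34 for PABPC4 and 1.42 and 1.86 for PABPN1. In U343 with miR-137, the calls of the 3 genes were lost without RIPSeq replicate 1 or replicate 2, as were those of all other genes. The log2 fold changes of PABPC1 were then 1.87 and 1.96.

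The partners showed smaller differences. EIF4G1 was lower in PABP-bound RNA in U251 with miR-137 (log2 -0.66 ± 0.10, adjusted p = 0.00035) and in U343 control cells (-0.28 ± 0.08, adjusted p = 0.028), with values of -0.07 ± 0.30 and -0.19 ± 0.13 in the other two comparisons. PAIP1 was higher in U251 with miR-137 (0.29 ± 0.09, adjusted p = 0.018) and in U343 control cells (0.26 ± 0.07, adjusted p = 0.021). PAIP2 was higher in U343 control cells (0.33 ± 0.09, adjusted p = 0.018). Each of these U343 control calls was lost without RIPSeq control replicate 1 (adjusted p = 0.13 for EIF4G1, 0.087 for PAIP1 and 0.077 for PAIP2) and without RNASeq control replicate 2 (0.13, 0.084 and 0.11). The PAIP1 call in U251 was lost without RIPSeq miR-137 replicate 1 (adjusted p = 0.22) or replicate 2 (adjusted p = 0.14), and by DESeq2 (adjusted p = 0.060).

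Among the deadenylase subunits, CNOT6 was higher in PABP-bound RNA in U343 control cells (0.63 ± 0.08, adjusted p = 0.00073) and with miR-137 (0.61 ± 0.13, adjusted p = 0.040), with positive values in U251 of 0.67 ± 0.48 and 0.35 ± 0.14 that did not pass. The first of those was 1.19 without RIPSeq control replicate 1 and -0.24 without RIPSeq control replicate 2. PAN3 was lower in 3 of the 4 comparisons: -0.54 ± 0.09 in U251 with miR-137 (adjusted p = 0.00092), -0.66 ± 0.10 in U343 control cells (adjusted p = 0.0014) and -0.46 ± 0.10 in U343 with miR-137 (adjusted p = 0.043). Its value in U251 control cells was -0.63 ± 0.31 (adjusted p = 0.19). CNOT1 was lower in U251 with miR-137 (-0.42 ± 0.17, adjusted p = 0.049) and higher in U343 control cells (0.27 ± 0.07, adjusted p = 0.018). The U251 value was -0.10 without RNASeq miR-137 replicate 1 (adjusted p = 0.090), and missed the threshold without either RIPSeq miR-137 library (adjusted p = 0.085 and 0.074). The U343 call was lost without any one of its 4 libraries, with adjusted p-values of 0.051 to 0.097. CNOT7 was higher in U251 with miR-137 (0.80 ± 0.09, adjusted p = 7.4e-05), where its total RNA had fallen to 82.6 and 89.4 CPM and its PABP-bound RNA stood at 147 and 152 CPM, and it passed in 0 of the other 3 comparisons. The calls of CNOT7, PAN3 and CNOT1 in U251 with miR-137 were lost in the joint fit of the 8 U251 libraries.

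A test of whether miR-137 acted differently on PABP-bound and total RNA, the interaction of mimic and assay, gave 0 of 10 members in either cell line by edgeR, where 0.134% of all genes passed in U251 and 0.00649% in U343. PABPC1 and CNOT7 in U251 and PABPC1 in U343 had an unadjusted p under 0.05, and DESeq2 called 0 members in either line. Without U251 RIPSeq control replicate 1 the U251 count was 3 beside 20.1% of all genes, and without control replicate 2 it was 9 beside 58% of all genes.

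Targets in this experiment were defined by a read-based rule, rebuilt here: in each of the 4 pairings of a control with a miR-137 library, Fisher's exact test on the gene's reads had to give an adjusted p under 0.001 with a control to miR-137 odds ratio above 2 for the gene to be called lower. This rule compares libraries and takes no account of replicate spread. A further U251 replicate mentioned in the methods was not analysed here, so the U251 results of the rule rest on the libraries above. By it, 0 of the 10 members were lower in any of the 4 experiments, where 2.21% of genes were lower in U251 RNASeq, 1.49% in U251 RIPSeq, 2.88% in U343 RNASeq and 3.4% in U343 RIPSeq. By the mirrored rule, 0 members were higher, against 6.14%, 3.47%, 1.51% and 4.83%. The nearest were CNOT6 in U343, with control to miR-137 odds ratios of 2.00 to 2.14 in RNASeq (3 of 4 pairs over 2) and 1.92 to 2.21 in RIPSeq (3 of 4), CNOT7 in U251 RNASeq, with 1.92 to 2.19 (2 of 4), and CNOT6 in U251 RIPSeq, with 1.15 to 2.73 (2 of 4, both with control replicate 2). Without U251 RIPSeq control replicate 1, CNOT6 was lower there by the rule, and without control replicate 2, PAIP2, CNOT7 and PAN3 were higher. For PAN3 the same ratios were 0.41 to 0.53 in U251 RNASeq and 0.45 to 0.52 in U251 RIPSeq, where a value under 0.5 is a rise that meets the mirrored limit. With an odds ratio limit of 1.5, CNOT7 was lower and PAN3 higher in U251 RNASeq, PAN3 was higher in U251 RIPSeq, CNOT6 was lower in U343 RNASeq, and CNOT1 and CNOT6 were lower in U343 RIPSeq. With library totals scaled by TMM, CNOT7 was lower in U251 RNASeq and CNOT6 in U343 RIPSeq. Over all genes in U251 RNASeq, that scaling gave 761 lower and 822 higher, in place of 448 and 1248.

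The cell lines also differed in control total RNA, in a comparison that cannot be told apart from the library kits. Relative to U251, U343 had lower PABPC1 (log2 -1.29 ± 0.11, 2.45-fold), PABPC4 (-0.97 ± 0.09), CNOT1 (-1.28 ± 0.10), CNOT6 (-1.28 ± 0.09) and CNOT7 (-0.66 ± 0.09), and higher PAIP1 (1.46 ± 0.09, 2.74-fold), PABPN1 (0.40 ± 0.09), PAN3 (0.45 ± 0.12) and PAIP2 (0.27 ± 0.10). These 9 of 10 passed the test (adjusted p at most 0.034), where 84.8% of all genes did (44.9% higher and 39.9% lower in U343), and EIF4G1 was 0.25 ± 0.12 (adjusted p = 0.072). The median over all genes was 0.10, beside which the values of PAIP2 and EIF4G1 are small. PABPC4L, a relative of PABPC4, had 167 and 174 reads in U251 control total RNA and 0 and 2 reads in U343.

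**Figure D4:**
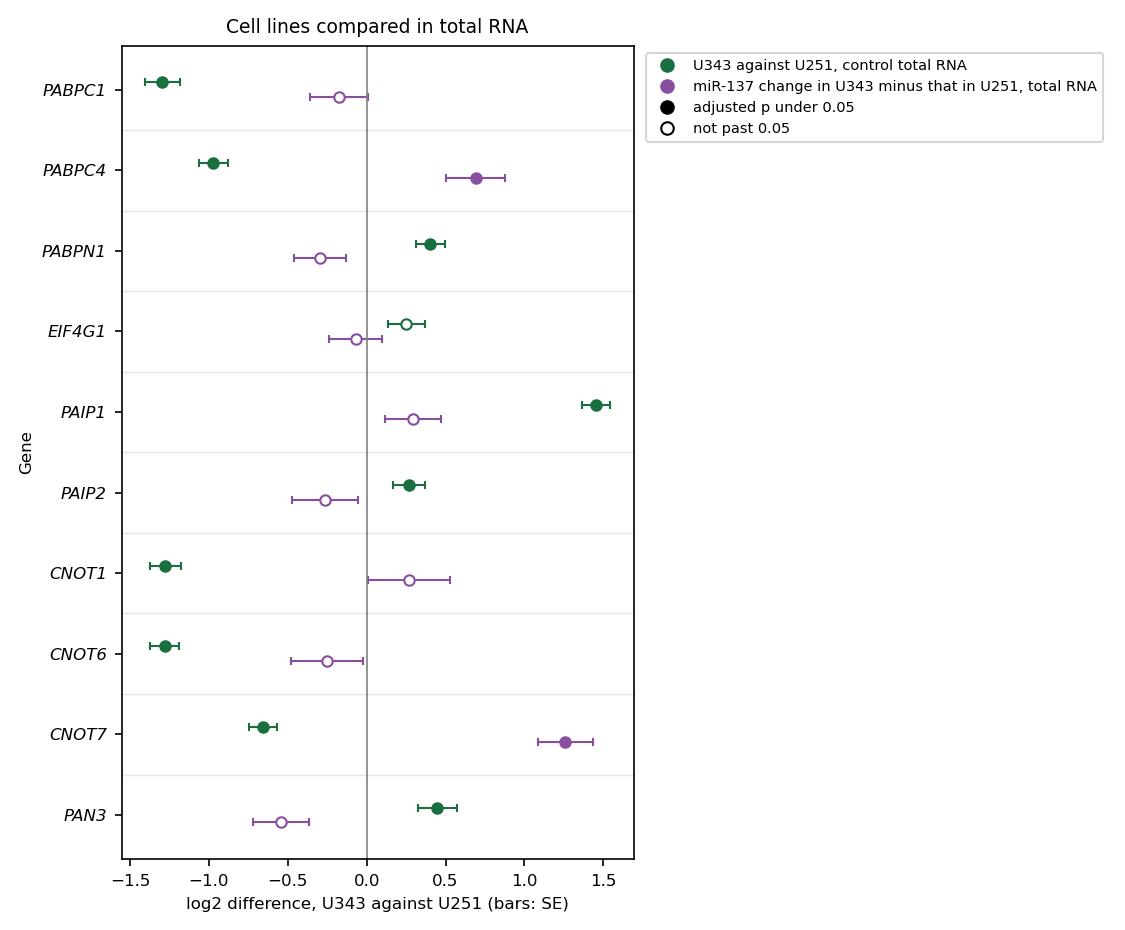
Log2 difference between U343 and U251 with its standard error, in control total RNA (green) and in the response of total RNA to miR-137 (purple), filled where the adjusted p is under 0.05. CNOT7 and PABPC4 are the members whose response to miR-137 passed the test of a difference between the lines, at 1.26 and 0.69.

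When the response to miR-137 was compared between the lines, 2 of 10 members passed in total RNA, CNOT7 and PABPC4, against 25.2% of all genes. PAN3 came next at -0.55 ± 0.18, with a smaller rise in U343 (adjusted p = 0.055). In PABP-bound RNA 0 of 10 passed by edgeR or DESeq2, against 3.28% of all genes (2.06% higher and 1.22% lower), with PAIP2 and EIF4G1 at an unadjusted p under 0.05. That count was 3 without U251 RIPSeq control replicate 1, beside 33.7% of all genes, and 8 without control replicate 2, beside 52.8%. For CNOT1 and CNOT6 the total RNA differences were 0.27 ± 0.26 and -0.25 ± 0.23, neither past the threshold.

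Related genes give the setting for these values. They were taken from 7 lists of 92 genes in all, chosen by function but with earlier results of these data known. In U251 PABP-bound RNA 0 of the 87 tested passed by edgeR, with 14 at an unadjusted p under 0.05 and 4 by DESeq2, so the counts below are for the other 3 experiments. Without U251 RIPSeq control replicates 1 and 2 the numbers were 71 and 80, beside 68.1% and 74.4% of all genes. In U343 total RNA 18 of 89 passed, beside 20% of all genes. These calls were lost without control replicate 1 or without control replicate 2, as were those of all other genes. In U251 total RNA the translation factors of the TOP class, such as EEF1G and EEF1B2 of the elongation machinery, fell together: 11 of 11 were lower (29% of all genes), with a list median of -1.003 beside 0.02 for all genes, and with EEF1G at -1.30 ± 0.13 and EEF1B2 at -1.25 ± 0.15. All 11 also passed without any 1 of the 4 libraries, and 7 of 11 in the joint fit of 8 libraries. PABPC1, whose message is of the same class, was 0.07 ± 0.14 there. In U343 total RNA 2 of 11 were lower beside 11.7% of all genes (TPT1, -0.58 ± 0.10, and EEF1B2, -0.40 ± 0.09), and in U343 PABP-bound RNA 5 of 11 were lower and 0 higher (median -0.31), beside 27.8% and 28.5% of all genes. The test of a difference between lines passed for 10 of the 11 in total RNA, each with the higher value in U343. Of all genes, 12.5% passed as higher and 12.7% as lower.

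Of 20 partners in initiation and termination, 19 were tested in U251 and 20 in U343. In U251 total RNA 10 were lower and 2 higher (median -0.39), beside 29% and 28.7% of all genes. EIF4G2, a relative of EIF4G1 that lacks the PABP-binding end, fell 3.91-fold in U251 total RNA (log2 -1.97 ± 0.17), 2.63-fold in U343 total RNA (-1.40 ± 0.12) and 3.41-fold in U343 PABP-bound RNA (-1.77 ± 0.11). EIF4EBP2, an inhibitor of translation initiation, was -1.83 ± 0.15 in U251 total RNA. PAIP2B, the second PAIP2 gene, was -1.32 ± 0.25 in U343 total RNA and -1.99 ± 0.28 in U343 PABP-bound RNA, beside 0.11 ± 0.12 and -0.10 ± 0.08 for PAIP2, neither past the threshold. Of the 20, in U343 total RNA 4 were lower and 1 higher (all genes 11.7% and 8.31%), and in U343 PABP-bound RNA 6 were lower and 4 higher (all genes 27.8% and 28.5%), which is near the background, with EIF4A2 among the higher at 0.80 ± 0.09.

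The other genes of the CCR4-NOT complex and its TOB and BTG adaptors were split in direction. Of 13 tested in U251 total RNA, 7 were higher and 3 lower (median 0.37), beside 28.7% and 29% of all genes. TNKS1BP1, which binds the complex, rose 2.71-fold in U251 total RNA (1.44 ± 0.20), 2.46-fold in U343 total RNA (1.30 ± 0.11) and 2.63-fold in U343 PABP-bound RNA (1.39 ± 0.09). CNOT3 rose in U251 total RNA (1.19 ± 0.22), while CNOT2 (-0.58 ± 0.13) and RQCD1 (-0.49 ± 0.13) fell. In U343 1 of 14 was higher and 1 lower in total RNA (all genes 8.31% and 11.7%), and 4 were higher and 2 lower in PABP-bound RNA (all genes 28.5% and 27.8%), shares near or under the background. CNOT8, the near twin of CNOT7, was 0.58 ± 0.09 there, and CNOT6L, that of CNOT6, was -0.95 ± 0.10.

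Among the 7 other deadenylases, ANGEL2 fell in U251 total RNA (-1.08 ± 0.13) and CCRN4L rose (0.51 ± 0.13), while 29% of all genes were lower and 28.7% higher. In U343 PABP-bound RNA, where 28.5% of all genes were higher and 27.8% lower, 4 were higher, led by CCRN4L at 1.61 ± 0.10, and 1 was lower, PAN2, the nuclease partner of PAN3, at -0.36 ± 0.08. None of the 7 passed in U343 total RNA (0 of 7, beside 20% of all genes), with 2 at an unadjusted p under 0.05 and 1 by DESeq2. The decapping and 5′ to 3′ decay genes split: of 14 tested in U343 PABP-bound RNA, 9 were lower and 4 higher (median -0.35), against the same shares of all genes. The higher genes included the exonuclease XRN1 (1.75 ± 0.11) and PATL1 (1.11 ± 0.08), and the lower ones the LSM ring genes LSM5 (-1.10 ± 0.09) and LSM3 (-0.99 ± 0.08). In U251 total RNA 4 of 14 were higher, PATL1 at 1.35 ± 0.13, and 5 lower, the decapping enzyme DCP2 at -1.05 ± 0.12 (all genes 28.7% and 29%), and in U343 total RNA 1 was higher and 4 lower (all genes 8.31% and 11.7%). Of 20 genes of poly(A) and U tail addition, 2 were higher and 7 lower in U251 total RNA, 1 and 3 in U343 total RNA and 4 and 4 in U343 PABP-bound RNA, shares that apart from the lower genes of U251 and U343 total RNA lie under those of all genes. The poly(A) polymerase gene PAPOLA was lower in all of these, by -0.98 ± 0.14, -0.77 ± 0.10 and -0.86 ± 0.08. The small list of other PABP genes had PABPC1L higher (1.19 ± 0.27) and PABPC4L lower (-0.62 ± 0.18) in U251 total RNA, and PABPC1L was -0.44 and -0.40 in U343 total and PABP-bound RNA (adjusted p = 0.16 and 0.27).

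**Figure D5:**
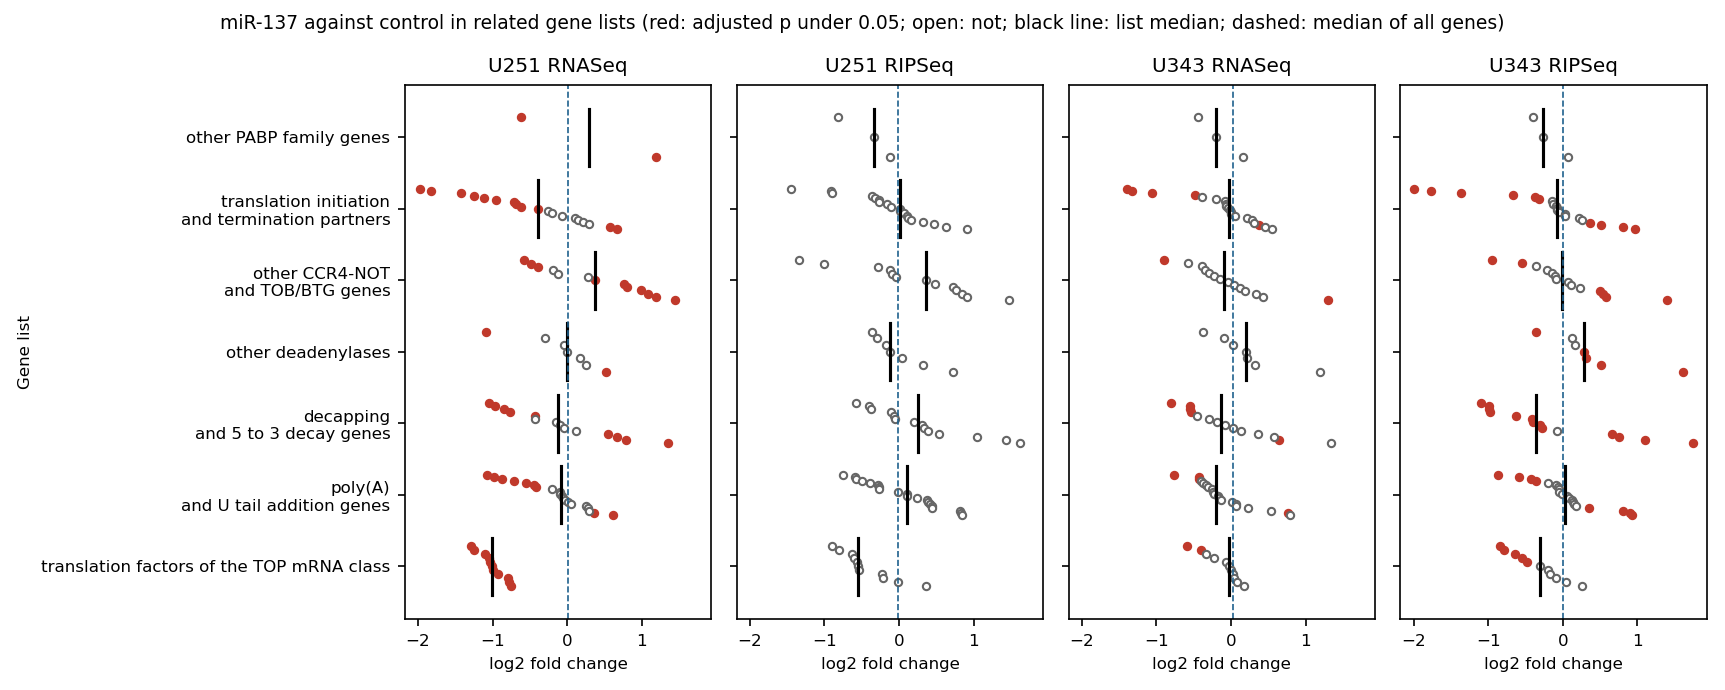
Log2 fold change of miR-137 against control for the genes of 7 related lists in the 4 experiments, red where the adjusted p is under 0.05, with the list median (black) and the median of all genes (dashed). All 11 TOP-class translation factors lie below 0 in U251 RNASeq, with a median of -1.003, beside a median of -0.03 in U343 RNASeq.

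The lists also give the setting for PABP-bound RNA. In U251 with miR-137, 9 of 11 TOP-class factors were higher in PABP-bound RNA and 0 lower (median 0.59, 32.4% of all genes higher), and in U343 control cells 6 were higher and 1 lower (median 0.28, all genes 24.4% higher and 24.2% lower). In control U251 cells 0 of 11 passed, beside 14% of all genes (median 0.03, 2 at an unadjusted p under 0.05, 0 by DESeq2). In U343 cells with miR-137 0 of 11 passed, beside 18.1% of all genes (median 0.34, 8 at an unadjusted p under 0.05, 6 by DESeq2). The highest of them was EIF3F, at 1.08 ± 0.10 in U251 with miR-137 and 0.99 ± 0.09 in U343 control cells. These values lay below those of PABPC1 and PABPC4 and slightly above those of PABPN1 in the same comparisons. Of the other deadenylases, 5 of 7 were lower and 0 higher in U251 with miR-137 (all genes 33.5% lower), and 3 of 7 lower in U343 control cells (24.2%). PAN2 was -0.68 ± 0.12, -0.48 ± 0.07 and, in U343 with miR-137, -0.74 ± 0.10. DCP2 was lower in U251 with miR-137, at -0.97 ± 0.09, and in U343 with either mimic, at -0.89 ± 0.08 and -1.32 ± 0.11.

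Over all 16 libraries, the genes whose log2(CPM + 1) followed PABPC1 most closely, among 9904 genes with a mean of at least 10 CPM, were ADIPOR2 (Pearson r = 0.973), YWHAB (r = 0.968) and TMEM138 (r = 0.966). Among the members, PABPC4 had r = 0.966 and PABPN1 r = 0.817. The 16 points fall into groups by cell line and assay, so these values describe the shared pattern of groups, high in RIPSeq and in U251, and carry no test. ADIPOR2, an adiponectin receptor, was 73.9 and 67.5 CPM in U251 control RNASeq libraries and 117 and 129.6 CPM in the matching RIPSeq libraries.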

How the data were processed

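The authors mapped reads with RMAP to hg18 and deposited raw counts per RefSeq gene, with exons of all isoforms merged into 1 super-transcript. How reads matching several places were counted is not given in the sources used here. The counts of 16 libraries were read as deposited, and of SLC35E2, on 2 lines in the U251 tables, the first line was kept. No other normalization is in the values.

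Each comparison was fitted to its own libraries across all genes with edgeR 4.0.16 in R 4.3.3: filterByExpr, TMM factors, glmQLFit and glmQLFTest, with Benjamini-Hochberg adjustment over all genes tested and a threshold of 0.05. Errors are standard errors of the log2 fold change. The code was tested on simulated data. Alternatives were DESeq2 1.42.0, upper-quartile scaling, no filter, a replicate block, fitting all 8 libraries of each line together, and leaving out each library. The study's rule was rebuilt with Fisher's exact test (two-sided) in SciPy 1.17.1, each library's total count serving as the denominator.

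All 10 members were named in every comparison. From each related list up to 2 genes per direction were named, the largest called changes where the higher group averaged 50 reads or more, and some of these genes are also given in the other comparisons. The members and lists were chosen with earlier results of these data known. Replicate numbers were not taken to pair libraries. Counts per library cover counting error only, and levels per transcript length were not computed.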

Additional observations from a re-analysis of the deposited data

Results flagged for a closer look

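The response of total RNA to miR-137 differed between the cell lines for 2 of the 10 members by the interaction test. Of all genes 25.2% passed this test, so the count is near the background. The CNOT7 log2 fold change was 1.26 higher in U343 than in U251 (SE 0.17, adjusted p = 0.0025 by edgeR), and stayed past the threshold without any 1 of the 8 libraries, at 1.16 to 1.40. The PABPC4 difference was 0.69 (SE 0.19, adjusted p = 0.029), and it was 0.51 to 0.85 without 1 library, past the threshold only without U343 RNASeq miR-137 replicate 1 or 2. Cell line and library kit cannot be told apart in these differences.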

How the results depend on the processing

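Of the 10 members, the joint fit of 8 libraries called 1 in U251 RNASeq (from 7), 1 in U251 RIPSeq (from 0) and 4 in PABP-bound against total RNA of U251 with miR-137 (from 8). The last 4 were PABPC1, PABPC4, PABPN1 and EIF4G1. With no filter, 0 were called in PABP-bound against total RNA of U251 controls (from 3) and 3 of U343 with miR-137 (from 5). The replicate numbers share only a number: same-numbered libraries had correlations of their deviations of -0.196 to 0.279 over the 8 comparisons. The replicate block gave 1 in U343 RNASeq (from 2) and 0 in PABP-bound RNA of U343 with miR-137 (from 5), and the crossed replicate block, chosen after seeing the data, 9 in PABP-bound RNA of U343 controls (from 9). By the study's rule an odds ratio over 1.5 gave 1 lower and 1 higher in U251 RNASeq, 1 higher in U251 RIPSeq, 1 lower in U343 RNASeq and 2 lower in U343 RIPSeq, and TMM-scaled totals gave 1 lower in U251 RNASeq and 1 in U343 RIPSeq. Leaving out 1 library gave 6 to 7 members in U251 RNASeq, 0 to 10 in U251 RIPSeq, 0 to 4 in U343 RNASeq and 4 to 5 in U343 RIPSeq. For PABP-bound against total RNA it gave 0 to 8 in U251 controls, 6 to 9 in U251 with miR-137, 5 to 7 in U343 controls and 0 to 6 in U343 with miR-137. For the interaction with assay it gave 0 to 9 in U251 and 0 in U343, for that with cell line 1 to 3 in RNASeq and 0 to 8 in RIPSeq, and between lines 7 to 10. The rule gave 0 to 1 lower in each experiment, and 0 to 1, 0 to 3, 0 and 0 higher. Directions turned in small or widely spread log2 values: with upper-quartile scaling EIF4G1 was 0.066 in U251 RNASeq and 0.031 in PABP-bound RNA of U251 controls and CNOT7 0.0010 in U343 RNASeq, and with no filter PABPN1 was -0.012 in U251 RNASeq. Without 1 library, U251 RNASeq values ranged from -0.17 to 0.016 for EIF4G1, -0.060 to 0.20 for PABPC1 and -0.030 to 0.11 for PABPN1, and U251 RIPSeq values from -0.35 to 1.32 for CNOT7, -0.39 to 0.071 for PABPC4, -0.50 to 0.56 for PAIP1 and -0.77 to 0.051 for CNOT1. U343 RNASeq values ranged from -0.14 to 0.061 for CNOT7 and -0.15 to 0.19 for PABPC4. In PABP-bound against total RNA of U251 controls PAIP1 ranged from -0.89 to 0.093, PAIP2 from -0.80 to 0.030, EIF4G1 from -0.30 to 0.040 and CNOT6 from -0.24 to 1.19. PAIP2 ranged from -0.10 to 0.25 in U251 with miR-137, and CNOT7 from -0.15 to 0.071 in U343 with miR-137. Over all genes, calls in U251 RNASeq were 7529 (2951 joint), in U251 RIPSeq 170 (1123 DESeq2, 59 no filter, 802 block, 2355 joint, 9741 and 11670 without control replicate 1 and 2), and in U343 RNASeq 3018 (5033 joint, 0 without either control, 6146 and 5762 without miR-137 replicate 1 and 2). PABP-bound calls were 1855 in U251 controls (3615 DESeq2, 100 no filter, 4036 block, 5755 joint), 8996 in U251 with miR-137 (3530 joint) and 2730 in U343 with miR-137 (1721 no filter, 0 block, 5423 joint). Calls of the interaction with assay were 19 in U251 (704 DESeq2) and 1 in U343 (400 DESeq2), and with cell line in RIPSeq 524 (1852 DESeq2, 140 block). Where leaving out 1 library took away or added most member calls, calls over all genes fell or rose as well. The cause of these changes was not tested. Single-member values under all alternatives were also counted, those of interactions only for CNOT7 and PABPC4 between the cell lines in RNASeq. Of these values, 688 kept direction and side of the threshold, 84 lost the call, 39 gained it and 23 turned. Gains of members in the other interactions are not among them. U251 libraries hold fewer reads than U343 libraries.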
